A study of Mus musculus with 27 samples.

Results

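Granzymes A, K and M are encoded by Gzma, Gzmk and Gzmm, and this account follows the transcripts of those 3 genes, of 47729 in the deposited count table, through sorted CD8+ T cells of mouse tumours. The genes were chosen by symbol with their levels in the 6 sorted groups already known, so those levels and their differences are given as descriptions without a test. All 3 passed the filter on low counts and were among the 14059 genes fitted. P-values are given for other genes only.

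The study set out to profile the CD8+ populations that arise in tumours under a combined immunotherapy. Cells came from digested MC38 tumours, a mouse colon adenocarcinoma model, and were sorted as CD45+ CD3+ CD8+ cells by surface PD-1, which restrains activated T cells, and KLRG1, a lectin-like receptor of late effector cells. Tri is the label of the treated mice, which the series text calls TCT, and Iso is the label of the isotype-treated controls. For the agents in Tri and for mouse strain, genotype and age, the sources used here give nothing. Tri mice gave 4 libraries of PD1-KLRG1+ cells, 5 of PD1-KLRG1- cells, 5 of PD1+KLRG1+ cells and 5 of PD1+KLRG1- cells, and Iso mice gave 4 of PD1-KLRG1+ and 4 of PD1-KLRG1- cells. No PD1+ library of Iso mice was analysed here, so treatment was compared within PD1- cells alone. The labels do not say that the libraries of a group came from separate mice, so p-values measure the spread between these libraries, part of which may be technical.

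Granzymes are serine proteases that cytotoxic lymphocytes store in secretory granules and deliver into target cells through pores made by perforin. Granzymes A and K are tryptases, which cut after lysine or arginine, granzyme M prefers to cut after methionine or leucine, and granzyme B cuts after aspartate and triggers apoptosis. Gzmk transcripts are widely used to mark effector-memory-like CD8+ T cells, Gzma is abundant in circulating effector cells and NK cells, and Gzmm was first studied in NK cells.

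In GENCODE M21, built on GRCm38, Gzma lies on the minus strand of chromosome 13 from 113093825 to 113100981 and has 5 exons. Gzmk lies on the same strand from 113171608 to 113225908, and its principal transcript also has 5 exons. RefSeq places a gap of 70.6 kb between this pair. Gzmm lies apart on the plus strand of chromosome 10 from 79689020 to 79695261, again with 5 exons. The sources used here do not give the build and annotation on which the authors counted. The coding sequences of Gzma and Gzmk were 63.3% identical, those of Gzma and Gzmm 57.0% and those of Gzmk and Gzmm 61.5%. No pair of the 3 shared a run longer than 19 nt.

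Each of the 3 genes had its highest mean in Tri PD1-KLRG1+, though for Gzma this was only 1.06 times that of Iso PD1-KLRG1+, with overlapping libraries. Their order of the other groups differed. So that a reader can compare the regions directly, the 250 bases before 1 annotated start site of each gene are shown. They are from the RefSeq promoter table of GRCm38.p6, 5′ to 3′ on the gene's strand, at chr13:113100982-113101231 (minus) for Gzma, chr13:113180966-113181215 (minus) for Gzmk and chr10:79688770-79689019 (plus) for Gzmm. Capitals mark exact matches, on either strand, to a T-box motif (GGTGTGA), a RUNX motif (ACCACA), a STAT motif (TTCNNNGAA) or an AP-1 motif (TGANTCA).
Gzma: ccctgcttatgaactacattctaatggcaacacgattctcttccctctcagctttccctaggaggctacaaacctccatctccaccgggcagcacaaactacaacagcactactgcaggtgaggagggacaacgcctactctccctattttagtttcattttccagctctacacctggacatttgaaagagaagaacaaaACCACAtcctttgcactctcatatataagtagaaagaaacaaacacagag
Gzmk: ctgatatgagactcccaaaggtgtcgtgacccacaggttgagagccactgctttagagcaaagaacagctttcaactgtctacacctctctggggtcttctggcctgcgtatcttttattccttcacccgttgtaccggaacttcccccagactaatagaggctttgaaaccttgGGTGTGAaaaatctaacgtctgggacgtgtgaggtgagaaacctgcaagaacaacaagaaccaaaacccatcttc
Gzmm: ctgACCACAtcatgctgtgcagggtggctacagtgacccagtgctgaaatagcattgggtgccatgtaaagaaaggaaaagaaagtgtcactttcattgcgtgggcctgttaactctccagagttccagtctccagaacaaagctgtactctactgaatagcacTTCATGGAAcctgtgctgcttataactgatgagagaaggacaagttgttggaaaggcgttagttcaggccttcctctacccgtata
The Gzma region held 1 RUNX match, 50 to 45 bases before the start. The Gzmk region held 1 T-box match, 75 to 69 bases before the start. The Gzmm region held a RUNX match 247 to 242 bases and a STAT match 86 to 78 bases before its start. The AP-1 letters were in none of the 3 windows, and no motif was in all 3. Of 32851 promoter windows of 250 bases in that table, 3.33% held the T-box letters, 14.0% the RUNX letters, 7.02% the STAT letters and 6.75% the AP-1 letters. A match describes letters and not binding. For Gzmm that table held 2 windows, and the 1 at the lower coordinate was used. The Gzmk window lies inside the gene's GENCODE span, which reaches 113225908, so a start at that end was not examined.

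Of the 27 libraries, 26 held 6991521 to 26284630 counts each, and replicate 3 of Iso PD1-KLRG1+ held 93198. The Iso PD1-KLRG1+ libraries had counts for the fewest genes, 8981, 9252, 5832 and 9427. The next lowest, Tri PD1-KLRG1- replicate 5, had counts for 10608 genes. Levels are given in CPM, the count scaled to the TMM-adjusted size of its library, and 3 counts, the most that a count of 0 allows, corresponded to 27.6 CPM in that shallow library and to 0.435 CPM or less in each of the others. Pdcd1, which encodes PD-1, was at 636.1 CPM or more in the 10 PD1+ libraries and at 206.2 CPM or less in the 17 PD1- libraries. Klrg1 was higher in every KLRG1+ library than in every KLRG1- library with 1 exception, since Tri PD1-KLRG1- replicate 1 was at 40.0 CPM and Tri PD1+KLRG1+ replicate 5 at 38.9 CPM. The 6 CD8 T cell markers summed to between 4548 and 11697 CPM in every library. Of the 10 myeloid markers, the sum reached 7716 CPM in Iso PD1-KLRG1+ replicate 4 and 3034 CPM in Iso PD1-KLRG1- replicate 4, and the 6 tumour and stroma markers reached 3332 CPM in the former. NK cells also make granzymes A and M. In Tri mice the 8 NK markers summed to 83.2 to 184 CPM (PD1-KLRG1+), 97.6 to 169 CPM (PD1-KLRG1-), 183 to 327 CPM (PD1+KLRG1+) and 197 to 354 CPM (PD1+KLRG1-). In Iso mice they summed to 55.3 to 659 CPM among KLRG1+ cells and 228 to 299 CPM among KLRG1- cells. Of the 8 NK markers, Ncr1 and Klra8 were at 0 in every Tri library. Other NK markers had counts there, with Tri group means of 98.5 to 225 CPM for Klre1 and up to 58.6 CPM for Fcer1g. Klrb1c and Tyrobp also had counts in each Tri group. The part of NK cells in the granzyme levels was not tested.

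Gzma had the widest range of the 3 genes. In Tri PD1-KLRG1+ it stood at 1261, 2589, 1680.5 and 880.3 CPM, with a mean of 1603 ± 734 (SD, n = 4). In Iso PD1-KLRG1+ it stood at 3969, 528, 1050 and 509 CPM, with a mean of 1514 ± 1656 (n = 4). In those 2 groups the libraries overlapped, and replicate 1 of Iso held the highest value of all 27. Tri PD1-KLRG1- held 639.98, 472, 503, 321 and 371 CPM (461 ± 124, n = 5). Iso PD1-KLRG1- held 63.3, 82.7, 99.4 and 41.0 CPM (71.6 ± 25.2, n = 4), so every Tri library of this gate lay above every Iso library. In Tri mice, PD1+ libraries lay below PD1- libraries. PD1+KLRG1+ libraries held 206, 103, 178, 81.1 and 0.874 CPM (114 ± 81.4, n = 5). PD1+KLRG1- libraries held 12.1, 21.4, 17.9, 6.44 and 0.138 CPM (11.6 ± 8.58, n = 5). Replicate 5 was the lowest library of both PD1+ groups, while replicate 5 of Tri PD1-KLRG1- was at 371 CPM. The highest group mean was 138 times the lowest. In order of mean level the groups ran Tri PD1-KLRG1+, Iso PD1-KLRG1+, Tri PD1-KLRG1-, Tri PD1+KLRG1+, Iso PD1-KLRG1- and Tri PD1+KLRG1-. Neighbours in that order overlapped except the third with the fourth and the fifth with the last.

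**Figure D1:**
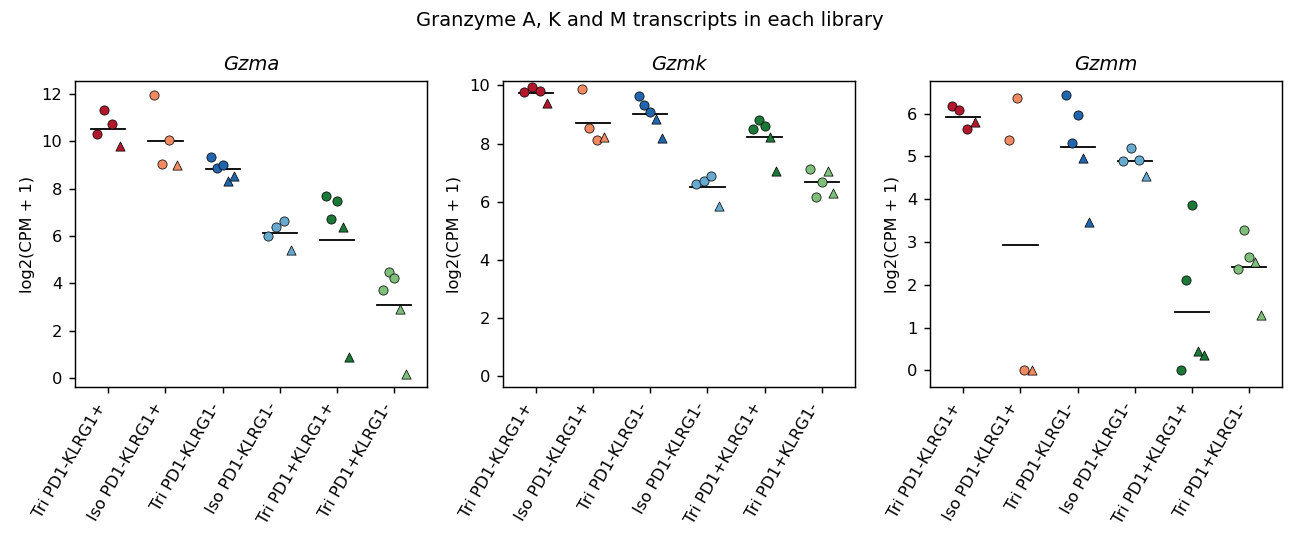
Levels of Gzma, Gzmk and Gzmm in each of the 27 libraries, as log2(CPM + 1) on the vertical axis and the 6 sorted groups on the horizontal axis. Circles are libraries whose names carry no RNA-number suffix, triangles those that do, and bars are the means of the plotted values. Each gene was highest on average in Tri PD1-KLRG1+, Gzma spread over the widest range, and Gzmm was at 0 in 2 Iso PD1-KLRG1+ libraries.

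Gzmk followed a flatter course. Tri PD1-KLRG1+ libraries held 871, 986, 892 and 667 CPM (854 ± 134, n = 4). Tri PD1-KLRG1- libraries held 793, 636, 537, 463 and 291 CPM (544 ± 188, n = 5). These 2 groups overlapped, since the first library of the KLRG1- group lay above the last of the KLRG1+ group. Iso PD1-KLRG1+ libraries held 950.5, 366, 276 and 302 CPM (474 ± 320, n = 4). Iso PD1-KLRG1- libraries held 96.8, 103, 116 and 56.4 CPM (93.1 ± 25.7, n = 4). All 4 of the latter lay below all of the former. Among PD1+ cells, KLRG1+ libraries held 358, 447, 391, 299.7 and 131 CPM (325 ± 121, n = 5). KLRG1- libraries held 139, 70.2, 101, 132 and 77.4 CPM (104 ± 31.2, n = 5). Only replicate 5 of the PD1+KLRG1+ group reached into the range of the PD1+KLRG1- group. The highest group mean was 9.17 times the lowest. Groups ranked Tri PD1-KLRG1+, Tri PD1-KLRG1-, Iso PD1-KLRG1+, Tri PD1+KLRG1+, Tri PD1+KLRG1- and Iso PD1-KLRG1-, and each overlapped the next.

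Gzmm was the least abundant of the 3. Tri PD1-KLRG1+ libraries held 71.5, 66.7, 48.8 and 54.6 CPM (60.4 ± 10.5, n = 4). Tri PD1-KLRG1- libraries held 85.8, 38.6, 61.9, 30.4 and 9.98 CPM (45.3 ± 29.3, n = 5). Iso PD1-KLRG1- libraries held 28.6, 35.9, 29.0 and 22.1 CPM (28.9 ± 5.61, n = 4). The Tri PD1-KLRG1- libraries spread over the ranges of both other groups, while every Tri PD1-KLRG1+ library lay above every Iso PD1-KLRG1- library. The share of all genes so separated was not computed for that pair of groups. Iso PD1-KLRG1+ libraries held 40.4, 81.3, 0 and 0 CPM (30.4 ± 38.9, n = 4). The count of 0 in replicate 3 allows up to 27.6 CPM, whereas that in replicate 4 allows up to 0.164 CPM. These limits cover counting error only, and replicate 4 had counts for 9427 genes at a depth of 19929546 counts. PD1+KLRG1- libraries of Tri mice held 4.17, 8.68, 5.27, 4.83 and 1.45 CPM (4.88 ± 2.59, n = 5). PD1+KLRG1+ libraries held 0, 3.33, 13.6, 0.362 and 0.291 CPM (3.51 ± 5.79, n = 5). In the ranking by mean, Tri PD1-KLRG1+ was followed by Tri PD1-KLRG1-, Iso PD1-KLRG1+, Iso PD1-KLRG1-, Tri PD1+KLRG1- and Tri PD1+KLRG1+. The fourth and the fifth did not overlap, and all other neighbours did. The highest group mean was 17.2 times the lowest.

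The count of Gzma per count of Gzmk, which needs no scaling between libraries, was compared between gates. It ran from 1.32 to 4.18 in the 8 PD1-KLRG1+ libraries, from 0.654 to 1.27 in the 9 PD1-KLRG1- libraries and from 0.00178 to 0.575 in the 10 PD1+ libraries. No library of 1 of these 3 sets entered the range of another, though the PD1- sets came close, at 1.27 and 1.32. How often the ratio of other gene pairs separates these sets was not tested. In both PD1- sets the ranges of Tri and Iso libraries overlapped. Over the 27 libraries, log2 CPM of Gzma and Gzmk had a Pearson r of 0.80 and a Spearman rho of 0.84. With each group's mean removed they were 0.64 and 0.66. Gzmm went less closely with Gzma (r 0.39, rho 0.56) and with Gzmk (r 0.32, rho 0.56). After centring, these were r 0.29 and rho 0.44 with Gzma, and r 0.52 and rho 0.56 with Gzmk. The values of a library share its scaling, its depth and its sorted cells, so these coefficients are descriptions.

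**Figure D2:**
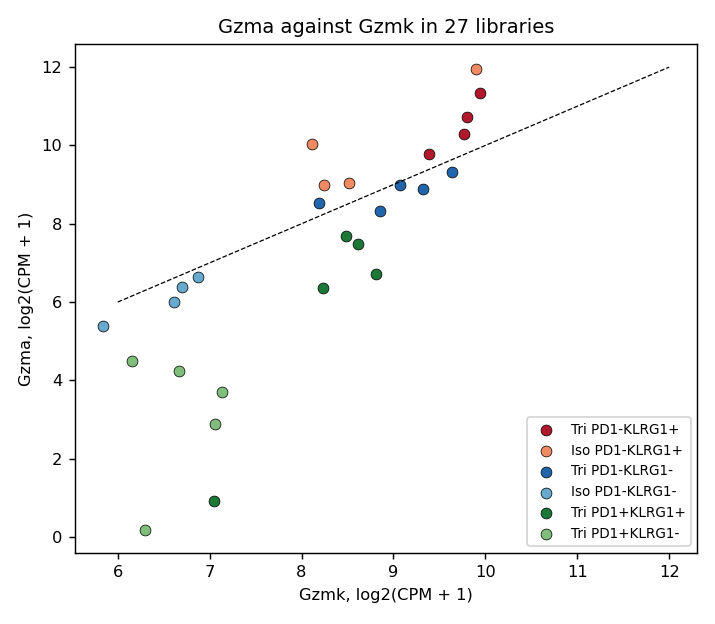
Gzma against Gzmk, both as log2(CPM + 1), with 1 point per library coloured by group and a dashed line where the 2 are equal. The 8 PD1-KLRG1+ libraries lie above the line, the 10 PD1+ libraries below it, and the 9 PD1-KLRG1- libraries near it.

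The PD1 gate was compared within Tri mice. Fold changes with an SE are log2 differences from the edgeR fit, first group over second, and the comparisons share groups with each other. In sorted bulk libraries, fewer expressing cells and less RNA per cell cannot be told apart. Among KLRG1+ cells the PD1+ minus PD1- difference was -3.80 ± 0.74 for Gzma, -1.34 ± 0.30 for Gzmk and -4.55 ± 1.3 for Gzmm. All 3 lay lower in every PD1+ library than in every PD1- library, as did 2.81% of the genes tested. Among KLRG1- cells the differences were -5.65 ± 0.80, -2.31 ± 0.29 and -3.05 ± 1.18, with the same separation, which 3.41% of genes tested shared. The library names form 2 series, without and with an RNA-number suffix. Values within a series are differences of mean log2 CPM, outside the fit, and for Gzmm, which had counts of 0, they are mean CPM. Gzma differed by -3.50 without and -6.60 with the suffix among KLRG1+ cells, and by -4.99 and -7.98 among KLRG1- cells. Gzmk differed by -1.20 and -1.75, and by -2.70 and -1.86. Gzmm was at 5.64 against 62.3 CPM and at 0.326 against 54.6 CPM among KLRG1+ cells, and at 6.04 against 62.1 CPM and 3.14 against 20.2 CPM among KLRG1- cells. All 3 were lower with PD1 in both series. Without both PD1+ libraries of replicate 5, the direction was the same for all 3 genes in both comparisons. Among KLRG1- cells the NK marker sum was higher in every PD1+ than in every PD1- library, and the 4 gamma-delta markers summed to at most 2.71 CPM with PD1 and 10.0 CPM without. Of single NK markers, Klre1 averaged 225 and 98.5 CPM and Klrb1c 2.6 and 8.42 CPM, and their part in the result was not tested.

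Of the other granzymes in PD1+ cells, C to G went the other way from these 3, while Gzmb had lower means. Of the 6 tested among 7 listed, 5 rose and none fell with PD1 among KLRG1+ cells, where the edgeR test called 1.2% of all genes. Granzymes C to G, rodent proteases encoded in a cluster on chromosome 14, made up the 5. Gzmf stood at 1147 CPM in PD1+KLRG1+ and 0.662 CPM in PD1-KLRG1+ cells (adjusted p = 0.000447), and Gzmc at 704.5 and 4.53 CPM (adjusted p = 0.00812). Gzmd had no count in PD1-KLRG1+ cells and was at least 3668-fold higher in PD1+KLRG1+ cells, and Gzmg at least 1104-fold, taking 3 counts across the whole group as the floor. The list's median was 11.57 as fitted, or 10.51 with such genes at their bounds, beside -0.01 over all genes. Gzmb was at 2337 ± 413 and 3376 ± 538 CPM and did not pass (-0.52 ± 0.19, adjusted p = 0.221). Among KLRG1- cells the same 5 rose and Gzmb fell, against 1.56% of all genes called. Gzmf was at 845 and 17.6 CPM (adjusted p = 0.00151), Gzme was at least 2760-fold higher, and Gzmb fell by 0.72 ± 0.18 (adjusted p = 0.0329). The list's median was 6.13 beside 0.06. Coding sequences of the C to G cluster are up to 94.8% identical (Gzmd and Gzme), so their reads may be split between genes. The call of Gzmc among KLRG1+ cells was lost without PD1-KLRG1+ replicate 1 or replicate 4 (highest adjusted p = 0.0541). That of Gzmd among KLRG1- cells was lost without PD1-KLRG1- replicate 1 or 3, without both PD1+ libraries of replicate 5 and in the libraries without a suffix alone (highest adjusted p = 0.0762), and that of Gzmb there was lost under 8 of 19 alternatives (0.144).

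Of the genes that load and release granules, few passed the test with PD1. Prf1, the pore former, rose in PD1+ cells by 1.91 ± 0.28 among KLRG1+ cells (975 ± 106 against 258 ± 80.9 CPM, adjusted p = 0.000558) and by 2.12 ± 0.26 among KLRG1- cells (936 ± 216 against 215 ± 42.5 CPM, adjusted p = 2.09e-05). It was the only gene called of 12 for granule loading, packing and activation in either comparison, with list medians of 0.12 and -0.02. Of 11 genes for granule transport and release, 1 rose among KLRG1+ cells and none changed among KLRG1- cells (medians 0.18 and 0.22). That gene was Vamp8, a vesicle fusion protein (0.99 ± 0.25, adjusted p = 0.0378), which was called under 8 of 18 alternatives (highest adjusted p = 0.188). Of 7 serpins, which inhibit granule proteases or cathepsins, only Serpina3g passed in each comparison, rising by 1.08 ± 0.25 (adjusted p = 0.0249) and 1.501 ± 0.24 (adjusted p = 0.000332). The former call was lost under 6 of 18 alternatives (highest adjusted p = 0.088). Serpinb9b did not pass (adjusted p = 0.131 and 0.0604), although its libraries did not overlap, at means of 280 and 11.1 CPM among KLRG1+ cells and 255 and 9.25 CPM among KLRG1- cells. The share of all genes that lay wholly higher with PD1 is not given here. The serpin medians were 1.08 and 0.84. None of 9 substrates and receptors of granzymes A and K passed (medians -0.24 and -0.20). Of 15 transcription factors, Id3, an inhibitor of E proteins linked to memory cells, fell among KLRG1+ cells from 9.21 CPM to no count (at least 255-fold lower, adjusted p = 0.000824). Among KLRG1- cells, Klf2, a factor that maintains egress receptors, fell by 4.06 ± 0.80 (8.75 against 151 CPM, adjusted p = 0.00445). Id3 fell by 4.07 ± 0.98 there (adjusted p = 0.04), a call that held under 7 of 19 alternatives (highest adjusted p = 0.53). Medians of this list were -0.10 in both.

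The treatment was compared in PD1- cells. Among KLRG1- cells, the Tri minus Iso difference was 2.98 ± 0.77 for Gzma, 2.63 ± 0.32 for Gzmk and 0.62 ± 1.17 for Gzmm. All Tri libraries lay above all Iso libraries for Gzma and Gzmk, as for 2.41% of genes tested, while Gzmm overlapped. Within the series without and with a suffix, Gzma differed by 2.73 and 3.07 and Gzmk by 2.62 and 2.70. Gzmm was at 62.1 against 31.1 CPM and at 20.2 against 22.1 CPM, so its direction differed between the series. The 8 NK markers summed lower in each of these Tri libraries than in each Iso library, at most 169 CPM against at least 228 CPM. Klre1 alone of the 8 had the higher mean in Tri, at 98.5 CPM against 43.1 CPM in Iso. The 10 myeloid markers summed to 136 to 439 CPM in Tri and 649.7 to 3034 CPM in Iso. The part of these markers in the result was not tested.

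Among the listed genes in this comparison, 5 rose and 1 fell, where the test called 0.804% of all genes. Gzmb rose by 1.84 ± 0.20 (1960 ± 280.3 against 549.6 ± 19.9 CPM, adjusted p = 3.33e-06). Gzme, at 1.72 CPM in Iso, had no count in Tri and was at least 39.2-fold lower (adjusted p = 0.0266), but that call held under 9 of 18 alternatives (highest adjusted p = 0.111). The median of the 6 other granzymes was -0.02 beside -0.09 over all genes. Prf1 did not pass (1.08 ± 0.27, adjusted p = 0.0589), nor did any other of the 12 loading or 11 transport genes (medians 0.03 and 0.44). Serpinb9, the inhibitor of granzyme B, rose by 2.25 ± 0.23 (286 ± 45.8 against 59.3 ± 16.1 CPM, adjusted p = 3.25e-06), 1 of 7 serpins, whose median was 1.29. F2r, which encodes the thrombin receptor PAR1, was the 1 gene called of 9 substrates and receptors. It rose by 1.29 ± 0.31 (302 ± 105 against 124 ± 48.7 CPM, adjusted p = 0.0429), with overlapping libraries, and its call was lost under 10 of 18 alternatives, among them leaving out any of Iso replicates 1 to 3 or Tri replicates 1 to 4 (highest adjusted p = 0.238). The median of that list was -0.56. Of 15 transcription factors, with a median of 0.25, 2 rose. Bhlhe40, a transcriptional repressor present in resident and effector T cells, rose by 1.80 ± 0.25 (adjusted p = 0.000208). Id2, which favours effector fate, rose by 1.20 ± 0.25 (adjusted p = 0.012). The call of Id2 was lost without Iso replicate 2 and in the libraries without a suffix alone (highest adjusted p = 0.0903).

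Among KLRG1+ cells, the Tri minus Iso difference was 0.19 ± 0.73 for Gzma, 0.86 ± 0.32 for Gzmk and 1.49 ± 1.29 for Gzmm, and libraries of the 2 treatments overlapped for all 3 genes. Tri libraries lay wholly above Iso libraries for 8.72% of genes tested. Without Iso replicate 1 the differences were 1.04 for Gzma and 1.35 for Gzmk. Without Iso replicates 3 and 4 they were -0.16 for Gzma, 0.53 for Gzmk and 0.44 for Gzmm. With all libraries but median-ratio (RLE) scaling, Gzma was at -0.0089, so its direction turned with the scaling and with the libraries included. Without and with a suffix, the latter from 1 library a side, Gzma differed by 0.44 and 0.79 and Gzmk by 0.998 and 1.15. Gzmm was at 62.3 against 40.6 CPM without the suffix, where Iso includes the shallow library at 0, and at 54.6 CPM against a count of 0 with it. Of the other granzymes none passed, including Gzmb (0.06 ± 0.20, adjusted p = 0.947), where the test called 6.08% of all genes. The median of that list was 0.02 as fitted beside 0.34 over all genes, and -0.01 with bounds. Serpinb9 rose by 1.32 ± 0.24 (424 ± 57.6 against 171 ± 43.5 CPM, adjusted p = 0.000957), the 1 of 7 serpins to pass (median 0.38). Of 12 loading genes, Srgn, the proteoglycan that packs granzymes, rose by 0.90 ± 0.26 (adjusted p = 0.0413), while the lysosomal membrane proteins Lamp1 and Cd63 fell by 1.39 ± 0.28 (adjusted p = 0.00282) and 6.48 ± 1.94 (adjusted p = 0.0448), and the median was -0.47. Srgn kept its call under 6 of 16 alternatives (highest adjusted p = 0.142) and Cd63 under 6 of 15 (0.248), and Lamp1 lost it without Iso replicates 3 and 4 (adjusted p = 0.0783). No transport gene and no substrate or receptor passed (medians 0.22 and 0.04). Of 15 transcription factors, with a median of 0.50, Id3 rose from no count to 9.21 CPM (at least 99.9-fold, adjusted p = 0.00281). That bound covers counting error only and does not allow for the low number of genes detected in Iso PD1-KLRG1+ libraries. Id2 rose by 0.97 ± 0.25 (adjusted p = 0.0211). The call of Id2 was lost under 5 of 16 alternatives (highest adjusted p = 0.0752). Marker sums of Iso PD1-KLRG1+ libraries spanned 203 to 7716 CPM for myeloid cells and 18.4 to 3332 CPM for tumour and stroma, beside 175 to 217 and 0 to 11 CPM in Tri, and their part in these differences was not tested.

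**Figure D3:**
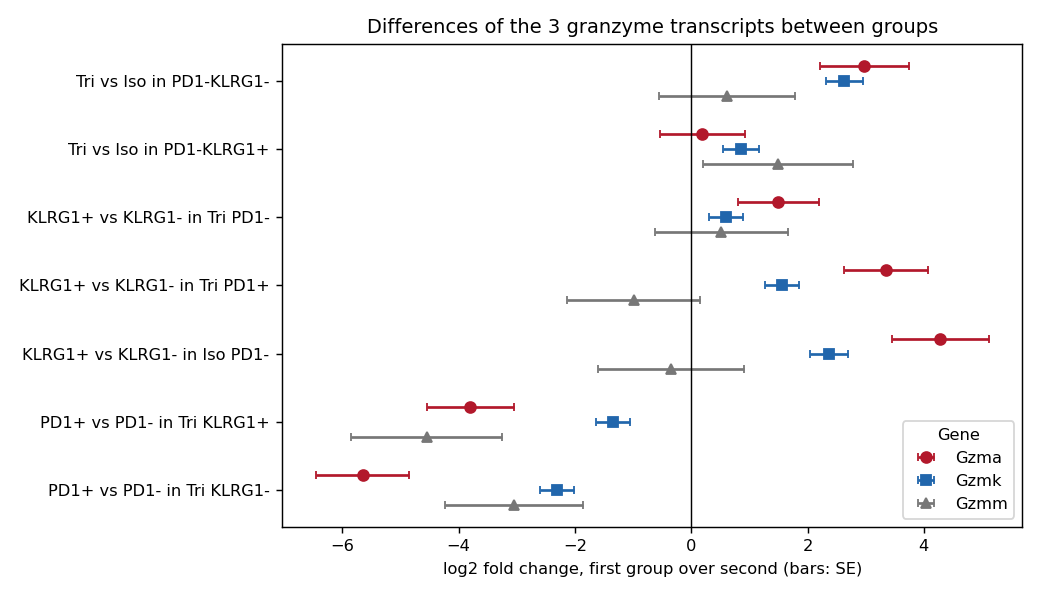
Log2 fold changes of Gzma, Gzmk and Gzmm in the 7 comparisons, first group over second, with bars of 1 SE from the edgeR fit over 27 libraries. The points of all 3 genes are negative in both PD1 comparisons, and in the 5 others Gzma and Gzmk are positive, except that Gzma for Tri against Iso in PD1-KLRG1+ falls to -0.0089 with RLE scaling. Gzmm has the widest bars.

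The KLRG1 gate was compared in 3 settings. In PD1- cells of Tri mice, the KLRG1+ minus KLRG1- difference was 1.49 ± 0.70 for Gzma, 0.59 ± 0.30 for Gzmk and 0.52 ± 1.15 for Gzmm. Gzma alone of the 3 separated the groups without overlap, as did 0.918% of genes tested in that direction. Without and with a suffix, Gzma differed by 1.72 and 1.35 and Gzmk by 0.50 and 0.86, and Gzmm was at 62.3 against 62.1 CPM and 54.6 against 20.2 CPM. With edgeR, 0 of 14059 genes passed in this comparison, at 675 genes with an unadjusted p under 0.05, and DESeq2 called 192. No listed gene passed with edgeR. Gzmb was at 3376 ± 538 and 1960 ± 280.3 CPM (0.78 ± 0.19, adjusted p = 0.600). List medians were -0.29 for the other granzymes, -0.03 for loading, 0.16 for transport, -0.09 for serpins, 0.11 for substrates and receptors and 0.26 for transcription factors, beside -0.01 over all genes.

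In PD1+ cells of Tri mice the KLRG1+ minus KLRG1- differences were 3.35 ± 0.72 for Gzma, 1.56 ± 0.29 for Gzmk and -0.99 ± 1.14 for Gzmm. The libraries overlapped for all 3 genes, and 0.505% of genes tested lay wholly higher in KLRG1+ cells. For Gzma and Gzmk the overlap came from replicate 5 of the KLRG1+ group, whose Klrg1 level of 38.9 CPM was also the lowest of that group (92.04 ± 43.8, n = 5). Without that library, the differences were 3.65 for Gzma and 1.74 for Gzmk. In the 2 name series Gzma differed by 3.21 and 2.73 and Gzmk by 1.996 and 0.97, and Gzmm was at 5.64 against 6.04 CPM and 0.326 against 3.14 CPM. Of the listed genes, Gzmb rose by 0.98 ± 0.18 (2337 ± 413 against 1186 ± 325 CPM, adjusted p = 0.0217) and Id3 fell from 2.36 CPM to no count (at least 65.3-fold, adjusted p = 0.0217). The test called 0.0569% of all genes. These calls held under 11 and 10 of 19 alternatives (highest adjusted p = 0.135 and 0.251). List medians were 0.50 for the other granzymes, -0.04 for loading, 0.04 for transport, 0.09 for serpins, 0.02 for substrates and receptors and -0.01 for transcription factors, beside -0.07 over all genes.

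In PD1- cells of Iso mice, KLRG1+ minus KLRG1- differences were 4.28 ± 0.83 for Gzma, 2.37 ± 0.33 for Gzmk and -0.35 ± 1.3 for Gzmm. KLRG1+ libraries lay wholly above KLRG1- libraries for Gzma and Gzmk, as for 1.03% of genes tested. Without KLRG1+ replicate 1 the differences were 3.41 and 1.85, and without replicates 3 and 4 they were 4.61 and 2.67, while Gzmm turned to 0.66. The 2 name series gave 4.01 and 3.63 for Gzma and 2.12 and 2.42 for Gzmk. Gzmm was at 40.6 against 31.1 CPM without the suffix and at a count of 0 against 22.1 CPM with it, so its direction differed between the series. The other cytotoxic genes of the lists that passed here included Gzmb, up by 2.56 ± 0.21 (3224 ± 964 against 549.6 ± 19.9 CPM, adjusted p = 2.85e-08), and Prf1, up by 1.85 ± 0.29 (360 ± 146 against 101 ± 37.5 CPM, adjusted p = 0.00023). The test called 8.66% of all genes. Gzmf fell from 11.6 CPM to no count (at least 126-fold, adjusted p = 0.00509). That bound covers counting error only, and KLRG1+ libraries had counts for 5832 to 9427 genes, KLRG1- libraries for 14652 to 15288. Gzme, from 1.72 CPM, had an adjusted p of 0.0281 and was called under 8 of 16 alternatives (highest adjusted p = 0.0822). The other granzymes had 1 higher and 2 lower of 6 (median -2.89, or -1.27 with bounds, beside -0.52 over all genes).

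Among the remaining lists of that comparison, 2 of 12 loading genes rose (Prf1 and Lamp1, median 0.30), 1 of 11 transport genes rose (Stx11, median 0.18), 3 of 7 serpins rose (median 0.61) and 1 of 9 substrates and receptors rose (Hmgb2, a chromatin protein cut by granzyme A, median -0.37). Serpinb9 rose by 1.54 ± 0.24 (171 ± 43.5 against 59.3 ± 16.1 CPM, adjusted p = 0.000159). Serpinb9b had counts in 1 of the 4 KLRG1+ libraries, and its difference of 5.34 turned to -5.61 without that library, KLRG1+ replicate 2. The calls of Lamp1, Stx11, Serpinb9b and Serpinb6b each had an adjusted p of 0.0343 to 0.0455 and were lost under 7 or 8 of 16 alternatives, and that of Hmgb2 (adjusted p = 0.0153) was lost in the libraries without a suffix alone. Of 15 transcription factors, 3 rose and 1 fell (median 0.20). Tbx21, which encodes the effector factor T-bet, rose by 1.38 ± 0.25 (404 ± 70.9 against 159 ± 57.2 CPM, adjusted p = 0.000671). Zeb2, a factor of terminal effector cells, rose by 3.33 ± 0.64 (90.8 ± 39.7 against 9.66 ± 6.04 CPM, adjusted p = 0.00129). Bhlhe40 rose by 1.53 ± 0.26 (adjusted p = 0.000384), and Id3 fell from 137 ± 53.7 CPM to no count, at least 1489-fold (adjusted p = 0.000186). The bound for Id3 too covers counting error only and does not allow for the fewer genes detected in KLRG1+ libraries. Tbx21, Zeb2, Bhlhe40, Id3, Gzmb, Gzmf, Prf1 and Serpinb9 kept their calls under all 16 alternatives of this comparison.

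Levels can be set side by side between genes once divided by transcript length. Per kilobase of the principal transcript, Gzma averaged 1825 ± 836 CPM, Gzmk 831 ± 131 and Gzmm 46.9 ± 8.15 in Tri PD1-KLRG1+ (n = 4). In Tri PD1-KLRG1- Gzma and Gzmk were level at 525 ± 142 and 529 ± 183, and in Tri PD1+KLRG1- they were at 13.2 ± 9.77 and 101 ± 30.4. The order of Gzma and Gzmk thus differed between gates. Of the CPM per kb of all 10 granzyme genes, A, K and M together made up 52.5% ± 5.31 in the KLRG1+ and 43.2% ± 6.12 in the KLRG1- cells of the PD1- gate under Tri (n = 4 and 5). Under Iso they made up 42.5% ± 16.9 and 31.8% ± 5.68 (n = 4 each). In PD1+ cells they made up 10.5% ± 5.05 with and 4.32% ± 1.44 without KLRG1 (n = 5 each). Over single libraries the share was 24.2% to 63.4% in the 17 PD1- libraries and 1.95% to 14.4% in the 10 PD1+ libraries. Granzymes C to G made up 39.3% to 68.7% of PD1+ libraries and 0% to 10.8% of PD1- libraries. The 2 gates did not overlap in either share, with all PD1+ libraries from Tri mice. Both shares are parts of 1 sum, so a rise in 1 lowers the other. How often sets of other genes separate these gates was not tested. Gzmb held 29.0% ± 4.18 to 64.3% ± 7.0 of the sum in the group means. The upper end of the C to G share in PD1- cells came from Iso PD1-KLRG1+ replicate 4, the library with the high myeloid and stromal marker sums.

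**Figure D4:**
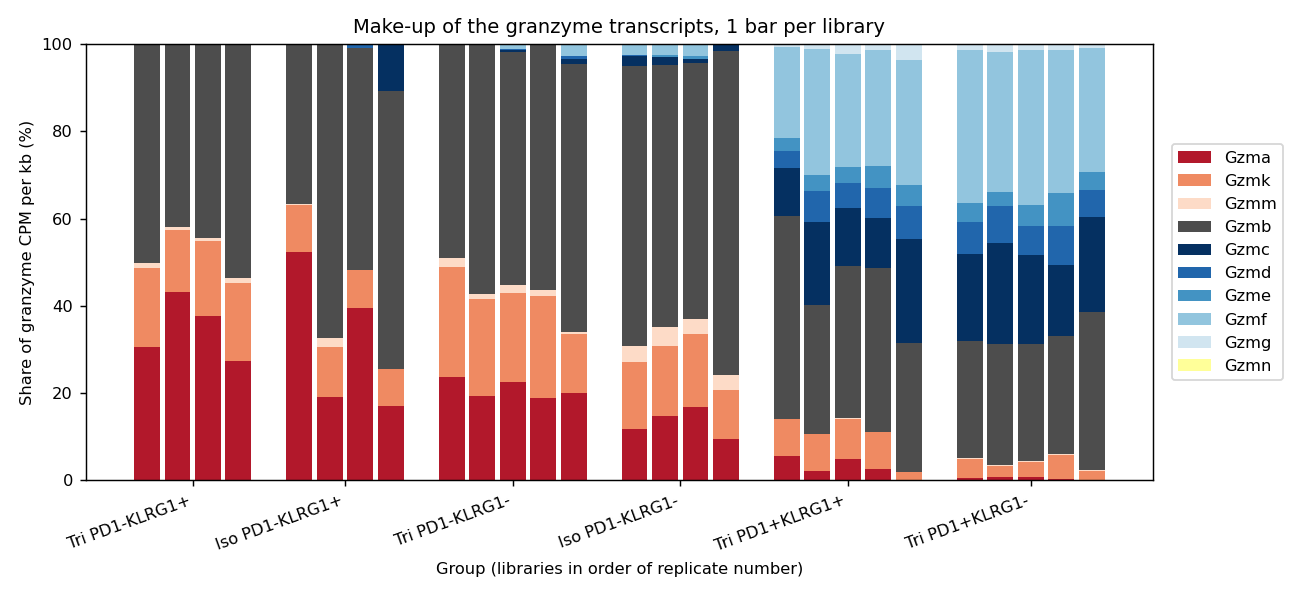
Share of each granzyme in the summed granzyme CPM per kb of transcript, in percent, with 1 stacked bar for each of the 27 libraries in their 6 groups. Granzymes A, K and M, in red shades, fill 24.2% to 63.4% of PD1- bars and at most 14.4% of PD1+ bars, where granzymes C to G, in blue shades, fill at least 39.3%.

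The genes whose levels went most closely with each granzyme over the 27 libraries were ranked by Spearman rho of log2 CPM among the 8775 genes whose mean level was 10 CPM or more. For Gzma they were Slamf7 (rho 0.918), Ccl5 (0.898), H2-Q7 (0.849), Gzmk (0.840) and Lime1 (0.836). For Gzmk they were Wdr95 (0.911), Gzma (0.840), Ppp1ca (0.819), Gimap7 (0.817) and Ccr2 (0.816). For Gzmm they were Slamf6 (0.862), Alkbh4 (0.851), Vrk3 (0.846), Twf2 (0.841) and Ggt1 (0.830). Few of these names were kept under other measures of likeness. Ranked by Pearson r, 2, 2 and 1 of the 5 named for Gzma, Gzmk and Gzmm were kept, and with group means removed 1, 0 and 0. Pearson r was 0.876 for Slamf7, 0.865 for Ccl5, 0.823 for Ccr2, 0.742 for Slamf6 and 0.414 for Wdr95. Ccl5, a chemokine stored and released by effector and memory CD8+ T cells, averaged 3862 ± 1970 CPM in Iso PD1-KLRG1+ libraries and 2304 ± 819 CPM in their Tri counterparts, and its lowest group was Tri PD1+KLRG1- with 240 ± 75.9 CPM. Ccr2, a chemokine receptor, had its highest mean in Tri PD1-KLRG1+ (720 ± 111 CPM) and its lowest in Tri PD1+KLRG1- (44.6 ± 20.5 CPM). Slamf6, a receptor of progenitor-like T cells, was highest in Tri PD1-KLRG1+ (140 ± 19.9 CPM), was similarly high in Iso PD1-KLRG1- (129 ± 16.1 CPM) and was lowest in Tri PD1+KLRG1- (34.2 ± 15.3 CPM). With group means removed, rho fell to 0.716 for Ccl5, 0.658 for the Gzma and Gzmk pair, 0.551 for Slamf6 with Gzmm, 0.510 for Slamf7 and 0.217 for Ccr2. Libraries share depth and sorted cells, and these are descriptions.

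Esm1, among the protein-coding genes nearest to Gzma and Gzmk, was highest on average in Tri PD1-KLRG1+, as was Snx18 (74.2 ± 29.7 CPM there and 29.3 to 61.7 CPM in the other group means). Esm1 encodes a secreted proteoglycan of endothelial cells. In RefSeq it lies 28.7 kb beyond Gzmk, and in GENCODE M21 it lies on the opposite strand and overlaps the longer span given to Gzmk. Whether exons of the 2 genes overlap was not examined. The sources used here do not say whether the counting used strand, so reads of unspliced Gzmk RNA and of Esm1 could be mixed. Among PD1- cells of Tri mice, KLRG1+ libraries held 75.6, 40.7, 51.5 and 77.8 CPM of Esm1 and KLRG1- libraries 46.0, 34.1, 51.7, 23.2 and 17.2 CPM. Iso PD1-KLRG1+ libraries held 54.1, 21.8, 36.9 and 0 CPM, the third value resting on 4 counts. The remaining groups were lower. Iso PD1-KLRG1- libraries held 1.79, 0.391, 0 and 0.497 CPM. Among PD1+ cells, KLRG1+ libraries held 0, 12.6, 9.44, 16.1 and 0 CPM and KLRG1- libraries 1.39, 5.602, 2.14, 4.21 and 0 CPM. Every Tri PD1- library lay above every PD1+ library, by a narrow margin of 17.2 against 16.1 CPM, and above every Iso PD1-KLRG1- library. The share of all genes so separated was not computed. No comparison of Esm1 passed the edgeR test, with adjusted p from 0.0742 to 1. Its rho with Gzma was 0.775, with Gzmk 0.786 and with Gzmm 0.659 over 27 libraries, and 0.383, 0.291 and 0.563 with group means removed.

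**Figure D5:**
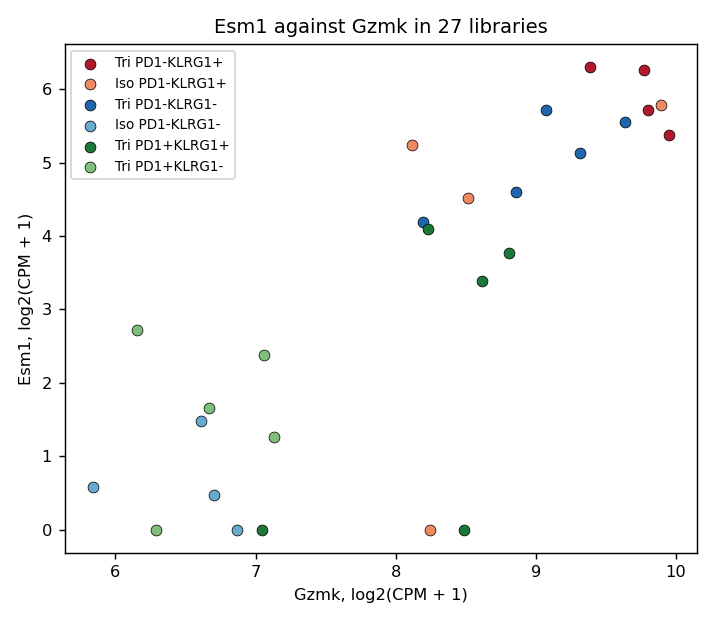
Esm1 against Gzmk, both as log2(CPM + 1), with 1 point per library coloured by group. All 9 Tri PD1- libraries sit at the upper right, and the Iso PD1-KLRG1- and Tri PD1+KLRG1- libraries at the lower left, with Esm1 at 0 in 5 of the 27 libraries.

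None of the other neighbours that were tested passed in any comparison, and several neighbours were hardly detected. Cdc20b, a relative of a cell cycle regulator, had counts in 5 libraries and reached 40.7 CPM. Mcidas and Madcam1 each had counts in 1 library, did not pass the count filter and were not tested. Cspg4b was not matched in the count table. Next to Gzmm, Cdc34, a ubiquitin-conjugating enzyme whose gene lies 0.621 kb away, had means of 148 ± 17.2 CPM (Tri PD1-KLRG1+) and 75.9 ± 17.3 CPM (Tri PD1+KLRG1-). Bsg, the adhesion protein basigin 9.1 kb on the other side, was at 292 ± 31.7 and 396 ± 70.9 CPM in the same groups.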

How the data were processed

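The authors deposited 1 table of whole-number read counts per Ensembl mouse gene for 27 libraries, without normalisation. The submitters' processing notes list DESeq2 1.26.0 but no role for it, and the sources used here do not give the aligner, counter, build or annotation. GENCODE M21 named 47224 of 47729 IDs. Libraries were grouped by the labels' treatment and gates, in 6 groups. The members, gene lists and rules were chosen with earlier results of these data known.

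Genes were kept by filterByExpr (minimum count 10), libraries were scaled by TMM, and edgeR 4.0.16 in R 4.3.3 fitted a robust quasi-likelihood model over all 27 libraries with 6 group means and the name series. P-values were adjusted by Benjamini-Hochberg over 14059 genes and called under 0.05. SE was taken as the size of the log2 fold change over the root of F. Each list was counted whole, and at most 4 genes of a list with the smallest p were named per comparison, while Gzmb, Gzmc and Gzmd were also named outside those 4, after their values were seen. Of 62 listed genes other than the members, 61 were found. The 5 genes most like each member were ranked by Spearman rho of log2 CPM (prior count 2), without receptor segments, and the 3 nearest protein-coding genes on each side were taken from RefSeq GRCm38.p6. Lower bounds use 3 counts over the group, which covers counting error only. They do not allow for the low number of genes detected in the Iso PD1-KLRG1+ libraries. Alternatives were RLE scaling, no filter, no name-series term, a replicate block, DESeq2 1.42.0 and leaving out libraries. On data simulated for PD1 in KLRG1+ cells (13667 genes), 33 of 100 genes changed by 2 on the log2 scale and 65 of 100 changed by 3 were called, so a gene not called may still differ. Figures used matplotlib 3.10.9 in Python 3.11.15.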

Additional observations from a re-analysis of the deposited data

Results flagged for a closer look

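Of 18 combinations of a granzyme and a group, 3 held a library past the critical value of Dixon's ratio. That ratio was used as a flag and not as a test. Its chance rate of about 1 in 20 is for independent, normally distributed values, which these CPM need not be. Gzma was at 3969 CPM in Iso PD1-KLRG1+ replicate 1, while the other 3 libraries of the group were at 509 to 1050 CPM. In the same library Gzmk was at 950.5 CPM, above 276 to 366 CPM in the others. Gzmm was at 13.6 CPM in Tri PD1+KLRG1+ replicate 3, while the others of that group were at 0 to 3.33 CPM.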

How the results depend on the processing

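Of the 21 member differences, 18 kept their sign under every alternative run. The others were Gzma for Tri against Iso in PD1-KLRG1+ (11 of 16 alternatives, -0.16 to 1.04), Gzmm for KLRG1 in Tri PD1- (16 of 18, -0.17 to 0.79) and Gzmm for KLRG1 in Iso PD1- (11 of 16, -1.66 to 0.66). Of 47 calls of listed genes, 25 held under every alternative and 22 were lost under at least 1. Serpinb9b for KLRG1 in Iso PD1- was reversed without Iso PD1-KLRG1+ replicate 2 (-5.61, with up to 9.98 when another library was left out), and the cause was not tested.

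The comparisons below come in the order Tri against Iso in PD1-KLRG1- and PD1-KLRG1+, KLRG1 in Tri PD1-, Tri PD1+ and Iso PD1-, and PD1 in KLRG1+ and KLRG1-, with 113, 855, 0, 8, 1218, 169 and 219 genes called. DESeq2 called 373, 1945, 192, 205, 2341, 699 and 522. Leaving out 1 library gave 28 to 157, 578 to 1280, 0 to 1, 0 to 10, 883 to 1591, 84 to 183 and 129 to 257. Without a count filter, 251, 39, 50, 334 and 390 were called in the first, the third, the fourth, the sixth and the last. Without the name-series term, 68 were called in the first and 5 in the fourth. Without Iso PD1-KLRG1+ replicates 3 and 4, 215 were called in the first and 301 and 363 in the PD1 comparisons, and without both Tri PD1+ libraries of replicate 5, 99 in the sixth. Libraries without a suffix alone gave 60, 497, 41 and 91 in the first, the second, the fourth and the last. These last 3 ways of leaving out libraries were chosen after seeing the data. The cause of these shifts was not tested.

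RLE scaling moved the median of all genes by -0.19, 0.16 and 0.10 in the second, the fifth and the sixth and by under 0.1 elsewhere. Whether equal replicate numbers mark paired libraries cannot be told from the labels. Deviations from group means correlated at -0.0714 to 0.149 over 31 pairs of equal number (median 0.0375, 5 over 0.1). The median over 120 other pairs was -0.0137 (2 over 0.1). Since not every pair of equal number passed 0.1, the numbers were not treated as a pairing. These values cannot exclude a pairing, and the p-values of the main fit take none into account. With the replicate block 114, 630, 0, 5, 1235, 140 and 190 genes were called, and the Gzma differences were 3.54 in the first and 0.90 in the third.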
